A study of Mus musculus with 2 samples.

Results

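Small leucine-rich proteoglycans (SLRPs) are secreted matrix proteins, and 7 of them were followed here in the progenitor and mesothelial cells of gonadal white adipose tissue (gWAT): Dcn (decorin), Bgn (biglycan), Aspn (asporin), Lum (lumican), Fmod (fibromodulin), Prelp and Ogn (osteoglycin). These 7 genes were chosen by symbol from the 31054 genes counted, as the members of the family usually described in connective tissue, and no measured value is part of that rule. Fmod RNA was 10.8-fold to 29.1-fold higher in mesothelial than in stromal cells, whereas Lum and Aspn RNA were 11.3-fold to 25.8-fold lower. The mesothelial levels of Lum and Aspn lay below or overlapped those of cells in which most RNA was immunoglobulin. Those cells were not free of progenitor RNA, so they cannot tell whether these folds are lower bounds. Between the sorted libraries, stromal cells of the Tom+ library held less Fmod, Bgn and Prelp RNA and more Aspn RNA than those of the Tom- library.

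SLRPs have a core of leucine-rich repeats that binds collagen fibrils and controls how thick the fibrils grow and how they are spaced. The family is sorted into classes by the core protein. Dcn, Bgn and Aspn are class I, of which Dcn and Bgn carry chondroitin or dermatan sulfate chains. Lum, Fmod and Prelp are class II, of which Lum and Fmod carry keratan sulfate, and Ogn is class III. Dcn and Bgn also bind TGF-β, a cytokine that drives matrix production, and soluble Bgn is a ligand of the innate immune receptors Tlr2 and Tlr4. In fat, fibroblast-like adipocyte progenitor cells (APCs) lay down most of this matrix, while mesothelial cells form the epithelium-like sheet that covers the visceral depots.

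The cells came from gWAT of 18-month-old male mice with the genotype p16-CreERT2/R26-LSL-tdTomato, after tamoxifen injections. In these mice Cre recombinase is made under control of the p16 gene and, once tamoxifen is given, switches on the red reporter tdTomato for good, so a cell is marked that expressed p16 at that time. All mice carried both alleles. Viable CD31- CD45- cells, which leaves out endothelial and blood cells, were sorted into tdTomato-positive (Tom+) and tdTomato-negative (Tom-) cells, and 1 droplet library was made of each. The number of mice behind each library is not given in the sources used here. With 1 library per sorted group there is no replicate, so no p-value or error between samples can be given, and a difference between the sorted cells cannot be told apart from a difference between the preparations. All intervals in brackets are at 95% and cover counting error only.

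The Tom+ library held 61119807 unique molecular identifiers (UMIs, each counting 1 captured RNA molecule) and the Tom- library 96872394. Cells with over 1000 and under 7000 genes and under 8% mitochondrial UMIs were kept, 3524 of 5566 Tom+ barcodes and 6717 of 11838 Tom- barcodes. Cells with at least 10 UMIs summed over Msln, Upk3b, Krt19, Lrrn4 and Upk1b are called mesothelial, 250 in the Tom+ and 1887 in the Tom- library. Cells with fewer than 5 are called stromal, 3263 and 4800, and 11 and 30 cells lay between. The stromal and progenitor markers Pdgfra, Pdgfrb, Ly6a, Cd34 and Itgb1, which the rule did not use, summed to 2350.2 and 2366 CPM (UMIs of a gene scaled by the summed total of the same cells) in stromal and to 940.5 and 934 CPM in mesothelial cells of the Tom+ and Tom- libraries. Not all of these markers went with the sum. Pdgfra, Pdgfrb and Ly6a were lower in mesothelial cells, with Ly6a at 196 and 213 against 1283 and 1412 CPM. Cd34 was higher in mesothelial cells, at 435 and 417 against 294 and 292 CPM. Itgb1 was nearly even, at 255 and 240 against 263 and 265 CPM. The reporter was at 211 and 13.1 CPM in Tom+ and Tom- stromal cells and at 780.2 and 8.25 CPM in mesothelial cells. Without the immunoglobulin-rich and Calca plus Ncam1 cells defined below, it was at 159 and 13.3 CPM in stromal cells. Of the cells left, at equal depth, 445 Tom+ stromal cells held a reporter UMI and 2317 did not, against 361 and 3739 Tom- stromal cells. Most of these Tom+ cells thus held no reporter UMI at that depth. Cdkn2a, the gene that encodes p16, was at 4.66 and 5.79 CPM in stromal cells and at 12.4 and 8.47 CPM in mesothelial cells.

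Several things differed between the libraries beside the sort. The mesothelial markers summed to 6.63 CPM in Tom+ and 27.3 CPM in Tom- stromal cells, of which 9.56% and 26.7% held such a UMI. Stromal cells with at least 20 immunoglobulin UMIs, called immunoglobulin-rich here, were 7.69% of the Tom+ and 2% of the Tom- stromal cells, and immunoglobulin RNA made up 5.87% and 1.496% of all stromal UMIs. Another 15 and 52 stromal cells held at least 5 UMIs of Calca plus Ncam1. The lists of barcodes shared 2224 entries, of which 9 passed the filters in both libraries. A shared barcode was carried by 404 Tom+ and 75 Tom- stromal cells, with a median of 27490 and 28548 UMIs, and by 100 and 207 mesothelial cells. Median UMIs were 14235 and 11270 in stromal and 18602 and 14753 in mesothelial cells. Results that turn on these cells are given with and without them. Markers of cells outside the sort were measured as well. The immune list summed to 1764 and 874 CPM in stromal cells, of which 1577 and 825 CPM were the antibody chain Jchain, and to 336 and 39.2 CPM in mesothelial cells, while Ptprc, the gene of CD45, was at 7.57 and 3.44 CPM and at 6.39 and 0.494 CPM. Lyz2 of this list was at 130 and 20.5 CPM in stromal and at 275 and 10.8 CPM in mesothelial cells, so it differed widely between the libraries. Cd68 was at 13.6 and 7.3 CPM in stromal and at 34.6 and 9.24 CPM in mesothelial cells. The endothelial list summed to 6.05 and 7.98 CPM in stromal and 133 and 90.7 CPM in mesothelial cells. In the latter nearly all of it was Kdr, with Cdh5 at 0 and 0.0618 CPM. Pecam1, the gene of CD31, was at 3.27 and 3.63 CPM in stromal and at 13.3 and 8.78 CPM in mesothelial cells. The pericyte and smooth muscle list summed to 81.8 and 73.5 CPM in stromal and 373 and 426 CPM in mesothelial cells, of which Acta2 was 354 and 416 CPM and Rgs5 3.76 and 0.278 CPM. The part of these cells in the ratios was not tested.

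The genes lie in 3 clusters and 1 single locus of the mouse genome (GRCm38). Dcn (ENSMUSG00000019929, chromosome 10 from 97479609 to 97518143) is followed by Lum (ENSMUSG00000036446, from 97565128 to 97572703) after a gap of 47.0 kb, both on the plus strand. On chromosome 13, Aspn (ENSMUSG00000021388, from 49544443 to 49567565) and Ogn (ENSMUSG00000021390, from 49608046 to 49624501) lie on the plus strand with Ecm2 before and Omd between them. On chromosome 1, Prelp (ENSMUSG00000041577, from 133910304 to 133921414) on the minus strand lies 115.8 kb from Fmod (ENSMUSG00000041559, from 134037254 to 134048277) on the plus strand. Bgn (ENSMUSG00000031375) lies alone on chromosome X from 73483602 to 73495933.

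RefSeq promoters (GRCm38.p6, 250 bases before to 50 after the start) were at hand for 5 members, Bgn, Aspn, Fmod, Prelp and Ogn. The promoters of Fmod and Aspn are shown because, of these 5, they had the highest and the lowest ratio of mesothelial over stromal cells in both libraries, and that of Ogn because it lies near Aspn on chromosome 13 and had a ratio much closer to 0. They span chr1:134037004-134037303, chr13:49544193-49544492 and chr13:49607765-49608064, each on the plus strand and written 5′ to 3′. Capitals mark matches on either strand to TATAAA (the TATA box), CCAAT (the CCAAT box), GGGCGG (the GC box), TGANTCA (AP-1) and GGAATG (TEAD).
Fmod: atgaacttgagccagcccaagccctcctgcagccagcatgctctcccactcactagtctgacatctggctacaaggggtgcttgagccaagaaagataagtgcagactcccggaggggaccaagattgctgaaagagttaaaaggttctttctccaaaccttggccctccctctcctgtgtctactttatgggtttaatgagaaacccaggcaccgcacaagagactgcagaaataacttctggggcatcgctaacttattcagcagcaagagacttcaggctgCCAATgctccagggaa
Aspn: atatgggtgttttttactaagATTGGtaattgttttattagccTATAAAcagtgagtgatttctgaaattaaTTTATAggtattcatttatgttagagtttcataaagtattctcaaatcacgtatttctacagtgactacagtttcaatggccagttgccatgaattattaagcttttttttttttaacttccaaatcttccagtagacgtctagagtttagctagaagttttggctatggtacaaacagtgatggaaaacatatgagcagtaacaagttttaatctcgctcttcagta
Ogn: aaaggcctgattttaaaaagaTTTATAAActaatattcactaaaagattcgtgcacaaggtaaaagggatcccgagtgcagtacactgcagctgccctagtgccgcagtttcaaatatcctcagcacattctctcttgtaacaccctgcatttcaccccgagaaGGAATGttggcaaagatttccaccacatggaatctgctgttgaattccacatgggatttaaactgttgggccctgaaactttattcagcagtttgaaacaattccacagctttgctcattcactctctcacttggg
Aspn held 2 matches to TATAAA, at -207 and -178 from the start, and 1 to CCAAT. Ogn held 2 overlapping matches to TATAAA and 1 to GGAATG at -86, and Fmod held 1 to CCAAT, after the start at 35. Of 32851 promoters of this length, 13.6% held TATAAA, 37.4% CCAAT, 35.7% GGGCGG, 7.81% TGANTCA and 14.7% GGAATG. Bgn, not shown, held 3 matches to GGGCGG, 2 of which overlap. The GC content was 31.0% in Aspn, 42.3% in Ogn, 51.0% in Fmod, 55.3% in Prelp and 63.7% in Bgn, beside a median of 52.7% over all promoters. A match describes the letters in this window and is not a shown binding site.

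Together the 7 genes made up 2.19% of all UMIs of Tom+ stromal cells and 2.60% of those of Tom- stromal cells. In mesothelial cells they made up 1.17% and 1.31%. Dcn alone gave between 84.6% and 86.3% of these UMIs in each of the 4 sets of cells. UMIs were counted from the 3′ ends of transcripts and are not scaled by gene length, so they are compared between cells and not between genes. The plot of levels by library shows each gene in stromal cells, in mesothelial cells and in cells whose UMIs were mostly immunoglobulin.

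**Figure D1:**
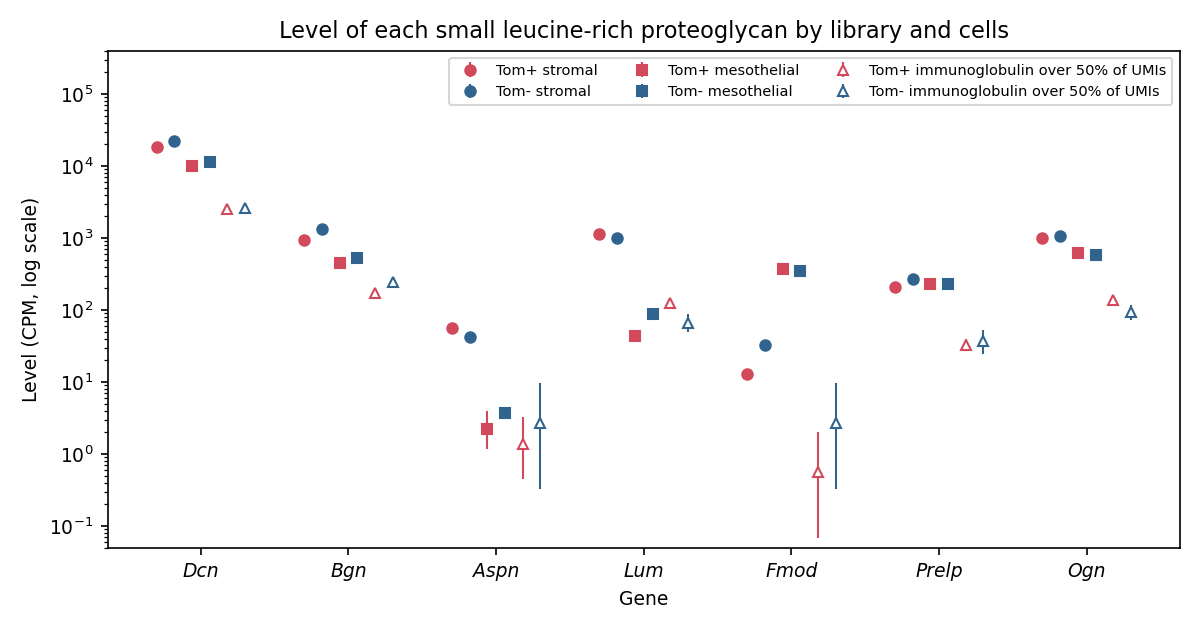
Level of the 7 genes in CPM (log axis) in the Tom+ (red) and Tom- (blue) libraries, for stromal cells (circles), mesothelial cells (squares) and stromal-class cells with over 50% immunoglobulin UMIs (open triangles). Bars are exact Poisson intervals at 95%. Fmod stood above the stromal level in mesothelial cells, mesothelial Aspn overlapped the immunoglobulin cells, and mesothelial Lum lay below them in the Tom+ library and overlapped them in the Tom- library.

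In droplet data, free RNA gives UMIs in cells that do not express a gene, so the members were first measured in cells in which over 50% of UMIs were immunoglobulin, as in antibody-secreting cells. There were 87 such Tom+ and 16 such Tom- cells, with median totals of 40537 and 48115 UMIs. Dcn was at 2545 and 2602 CPM in them, Bgn at 172 and 244 CPM, Ogn at 138 and 94.0 CPM, Lum at 125 and 66.7 CPM and Prelp at 32.9 and 36.8 CPM. Aspn gave 5 and 2 UMIs and Fmod 2 and 2 UMIs. The UMIs were unevenly spread over these cells. Dcn had a median of 5 and 10.5 UMIs a cell but a 90th percentile of 341 and 325.5. Lum had a median of 1 and 1 but a 90th percentile of 13.8 and 8. With each cell thinned to 7204 UMIs, a Dcn UMI was found in 67.8% and 75% of these cells and a Lum UMI in 26.4% and 18.8%. Immunoglobulin made up 65.5% and 63.7% of their UMIs and was thinned with the rest, so these shares rest on fewer other UMIs than in mesothelial cells. These cells also carried Pdgfra at 44.1 and 45.0 CPM, against 344 and 282 CPM in all stromal cells, so they were not free of progenitor RNA. Scaled by their UMIs other than immunoglobulin, Bgn was at 498 and 672 CPM, Ogn at 401 and 259 CPM, Lum at 362 and 184 CPM and Prelp at 95.5 and 101 CPM.

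Fmod, a class II member that binds collagen type I and guides the cross-linking of its fibrils, was the member that stood out in mesothelial cells. It was at 375 CPM (359 to 392) in mesothelial and 12.9 CPM (11.9 to 13.9) in stromal cells of the Tom+ library. In the Tom- library the levels were 353 CPM (347 to 359.9) and 32.9 CPM (31.4 to 34.4). The mesothelial level was thus about the same in both libraries, and the stromal level was lower in Tom+. The log2 ratio of mesothelial over stromal cells was 4.86 (4.74 to 4.99) in the Tom+ and 3.43 (3.36 to 3.50) in the Tom- library, at percentiles 98.2 and 97.0 of all genes tested. At equal depth, a Fmod UMI was found in 83.4% (78.2 to 87.8) and 83.2% (81.4 to 84.9) of mesothelial cells, in 5.92% (5.11 to 6.82) and 11.5% (10.6 to 12.5) of stromal cells, and in 0 of 87 and 0 of 16 immunoglobulin cells, which allows shares of up to 4.15% and 20.6%.

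Lum and Aspn had the reverse pattern. Lum, the class II member best known for ordering the collagen of the cornea, reached 1135 CPM (1126 to 1144) in stromal and 44.0 CPM (38.5 to 50.0) in mesothelial cells of the Tom+ library. In the Tom- library it reached 1015 CPM (1007 to 1023) and 89.7 CPM (86.4 to 93.0). The log2 ratios were -4.69 (-4.88 to -4.50) and -3.501 (-3.55 to -3.45). Mesothelial Lum lay below the 125 CPM (113 to 137) of immunoglobulin cells in the Tom+ library and overlapped their 66.7 CPM (49.4 to 88.2) in the Tom- library. The thinned shares of mesothelial cells with a Lum UMI, 22.7% and 24.96%, lay within the intervals of those cells too. Lum in mesothelial cells as a whole thus did not stand clearly above that in immunoglobulin cells by these measures, and by CPM it was lower in the Tom+ library. Scaled by their UMIs other than immunoglobulin, the immunoglobulin cells were at 362 and 184 CPM, above mesothelial Lum in both libraries. The tenth of the immunoglobulin cells with most Lum held 74.2% and 80% of their thinned Lum UMIs, so few cells set their summed level. At equal depth, 0 of 247 Tom+ but 48 of 1803 Tom- mesothelial cells held 5 or more Lum UMIs, so Lum was spread unevenly in the Tom- library. Aspn, a class I member that binds collagen and TGF-β but has no glycosaminoglycan chain, gave 2896 UMIs in Tom+ and 2438 in Tom- stromal cells, but 12 and 120 UMIs in mesothelial cells. Its levels were 56.7 and 42.1 CPM in stromal against 2.25 and 3.71 CPM in mesothelial cells, with log2 ratios of -4.65 (-5.61 to -3.84) and -3.51 (-3.78 to -3.24). The mesothelial level of Aspn was within the interval of the immunoglobulin cells in both libraries.

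UMIs of the other 4 members were found in most cells of both kinds. Dcn, which limits the thickness of collagen fibrils, stood at 18504 and 22290 CPM in stromal cells of the Tom+ and Tom- libraries and at 9987 and 11318 CPM in mesothelial cells, with log2 ratios of -0.89 and -0.98. Bgn, the chain-bearing relative of Dcn, was at 939.7 and 1322 CPM in stromal and at 455 and 533 CPM in mesothelial cells, log2 ratios of -1.05 and -1.31. Ogn, the class III member first described in bone, was at 1017 and 1073 CPM in stromal and 616 and 586 CPM in mesothelial cells, log2 ratios of -0.72 and -0.87. Dcn and Ogn lay above the immunoglobulin cells in both libraries on either scale. Bgn did so by CPM but not once those cells were scaled by their other UMIs. Its thinned share of mesothelial cells was 83.0% and 83.6%, beside 35.6% and 37.5% of the immunoglobulin cells. At this depth the immunoglobulin cells held fewer UMIs other than immunoglobulin, so the shares do not decide between the scales. Prelp, which links basement membranes to the collagen beneath them, was nearly even, at 208 and 268 CPM in stromal and 234 and 233 CPM in mesothelial cells. Its log2 ratio was 0.17 (0.083 to 0.25) in the Tom+ and -0.21 (-0.24 to -0.17) in the Tom- library, and without the barcodes listed in both libraries it was -0.12 and -0.23.

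By a limit of 1 on the log2 scale, 1 member (Fmod) was higher and 3 (Lum, Aspn and Bgn) were lower in mesothelial cells of either library. Of the 10240 genes that averaged 5 CPM or more in the Tom+ library, 13.1% were higher and 10.1% lower by this limit, and of 10019 in the Tom- library 11.9% and 9.22%. The median log2 ratio of the members was -0.89 and -0.98, beside 0.11 and 0.14 for all genes. Median-of-ratios scaling, which sets the median gene to 0, lowers each ratio by these 0.11 and 0.14. Dcn lay close to the limit and crossed it to -1.03 and -1.02 without immunoglobulin-rich and Calca plus Ncam1 cells. The cells are called mesothelial by the rule's own markers, and those markers are not used as a result here.

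**Figure D2:**
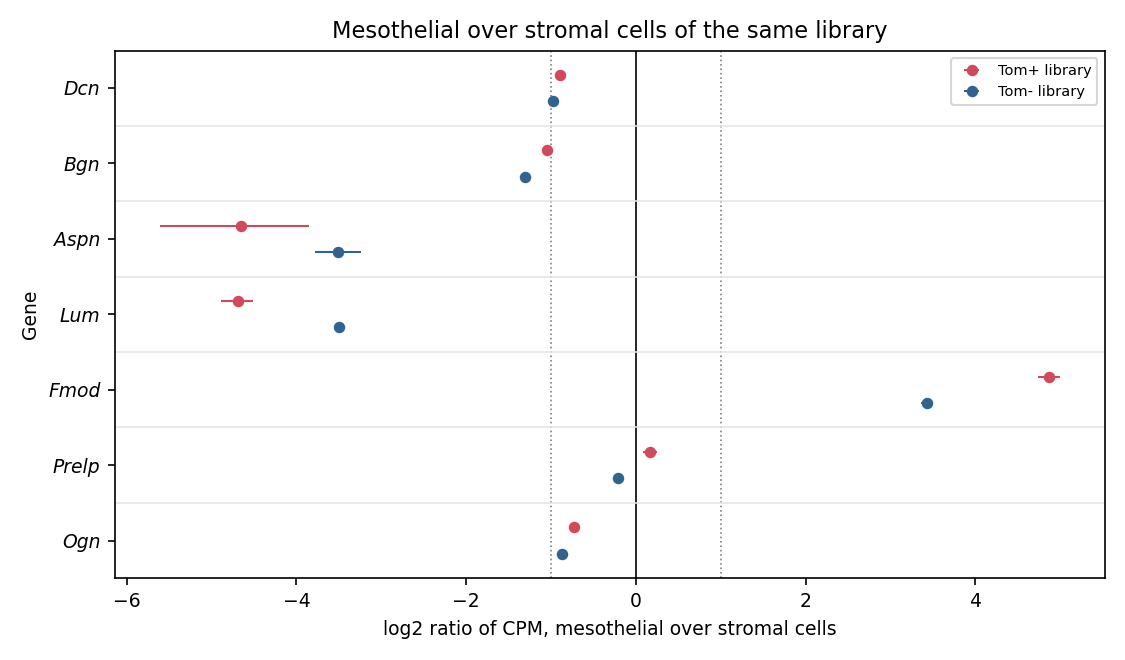
Log2 ratio of CPM in mesothelial over stromal cells of the same library for the Tom+ (red) and Tom- (blue) libraries, with exact counting intervals at 95% and dotted lines at the limit of 1. Fmod lies far to the right at 4.86 and 3.43, Lum and Aspn far to the left, and Prelp on both sides of 0.

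Relatives of the members in the same gene clusters were split between the cells as well. On chromosome 13, Ecm2 was at 136 and 130 CPM in stromal but 11.1 and 15.8 CPM in mesothelial cells, as with Aspn beside it. Omd (osteomodulin), which lies between Aspn and Ogn, was at 7.85 and 11.5 CPM in stromal and at 31.2 and 34.4 CPM in mesothelial cells, log2 ratios of 1.99 (1.72 to 2.26) and 1.58 (1.44 to 1.72). On chromosome 10, Epyc (epiphycan) was at 8.16 and 11.1 CPM in stromal and 0.376 and 0.680 CPM in mesothelial cells. Optc on chromosome 1, between which and Prelp only 2.3 kb lie, reached 3.38 and 2.41 CPM in mesothelial and 0.528 and 0.743 CPM in stromal cells. Optc in both libraries and Epyc in the Tom+ library averaged under 5 CPM, so they were too low to be tested there. Neighbours within the chromosome 13 cluster did not all share 1 direction. Of the more distant relatives, Lrrc17 was at 89.2 and 99.4 CPM in stromal and 4.70 and 6.09 CPM in mesothelial cells, while Podn was at 81.0 and 96.1 CPM in stromal and 105 and 96.9 CPM in mesothelial cells.

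Among the genes for the glycosaminoglycan chains, the keratan sulfate list held 5 of 9 genes with enough RNA, of which 2 were higher and 1 lower in mesothelial cells of each library. Over all genes tested, 13.1% were higher and 10.1% lower in the Tom+ library, and 11.9% and 9.22% in the Tom- library. Chst4, a sulfotransferase, was at 22.4 and 27.1 CPM in mesothelial cells and at 0.0196 CPM (1 UMI) and 0.138 CPM in stromal cells, log2 ratios of 10.2 (7.65 to 15.5) and 7.62 (6.63 to 8.83). B4galt4, a galactosyltransferase that extends keratan sulfate, was at 53.7 and 56.2 CPM in mesothelial against 6.24 and 7.31 CPM in stromal cells. Chst1, which sulfates the galactose of keratan sulfate, was the lower gene, at 2.63 and 3.43 CPM against 26.7 and 18.2 CPM. Of 18 tested genes for chondroitin and dermatan sulfate chains, 1 was higher (Chst11) and 5 were lower in mesothelial cells of each library. The dermatan sulfate epimerase Dse was at 37.4 and 35.2 CPM in mesothelial and 61.1 and 57.2 CPM in stromal cells, and Chst15 at 7.89 and 5.62 CPM against 36.3 and 41.1 CPM.

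The collagens that SLRPs bind were lower in mesothelial cells. All 7 tested fibrillar collagens passed the limit in the Tom+ library, and 6 did in the Tom- library, where Col3a1 was at a log2 ratio of -0.60. Over all genes tested, 10.1% and 9.22% were lower and 13.1% and 11.9% higher in the Tom+ and Tom- libraries. Col5a3 had the lowest ratio of the list, -5.07 and -3.81, and Col3a1 the highest, -1.30 and -0.60. Of 24 tested genes for bound ligands, receptors and proteases, 5 were higher and 14 lower in the Tom+ library, and 4 and 15 in the Tom- library. The receptors Kdr, Met and Tlr2 and the ligand Tgfb3 were the genes higher in both, with Tlr2 at 48.1 and 43.2 CPM in mesothelial and 18.1 and 15.7 CPM in stromal cells. The proteases Mmp2, Mmp3 and Adamts4 had the lowest ratios in both libraries, with Mmp2 at 38.1 and 42.0 CPM against 825 and 553 CPM. Among 14 and 13 tested large or cell surface proteoglycans, 5 and 4 were higher and 4 and 4 lower, led by Spock3, Spock2 and Sdc4 on one side and by Hspg2 (perlecan), Vcan (versican) and Gpc6 on the other.

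Between the libraries, Fmod had the largest difference of the 7 genes in stromal cells. It gave 659 UMIs in the Tom+ and 1902 in the Tom- cells, 12.9 and 32.9 CPM, and its log2 ratio of Tom+ over Tom- was -1.35 (-1.48 to -1.22), which is percentile 0.348 of the 9778 genes tested. Bgn stood at 939.7 CPM (931 to 948) against 1322 CPM (1312 to 1331), with a ratio of -0.49 (-0.51 to -0.48) and percentile 4.43. For Prelp the levels were 208 CPM (204 to 212) against 268 CPM (264 to 272) and the ratio was -0.37 (-0.40 to -0.33). These 3 members were lower in Tom+ by a limit of 0.35 on the log2 scale.

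Aspn was the member higher in Tom+ by the limit, with 56.7 CPM (54.6 to 58.8) against 42.1 CPM (40.5 to 43.8), a ratio of 0.43 (0.35 to 0.51) and percentile 90.6. Lum, with 1135 against 1015 CPM, was at 0.16 (0.14 to 0.18) and percentile 63.0. Dcn, with 18504 against 22290 CPM, was at -0.27 (-0.27 to -0.26), and Ogn, with 1017 against 1073 CPM, at -0.077 (-0.093 to -0.060). Among all 9778 genes, 14.8% were higher and 8.16% lower in Tom+ by the limit, so the count of 1 higher and 3 lower members stands beside these shares. The median of the members was -0.27 and that of all genes 0.071. With median-of-ratios scaling, which takes 0.071 from every ratio, 9.78% of genes were higher and 11.1% lower, so the split of calls over all genes turned with the scaling.

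Part of these ratios moved with the immunoglobulin RNA and with the barcodes listed in both libraries. Without immunoglobulin-rich and Calca plus Ncam1 cells, Fmod was at -1.20 (-1.34 to -1.06), Bgn at -0.41, Aspn at 0.50 and Lum at 0.27, while Prelp at -0.29 no longer passed the limit, Dcn was at -0.17 and Ogn at 0.016 (-0.0014 to 0.033), on the other side of 0. The median of all genes was then 0.13 and that of the members -0.17. Without the shared barcodes, Fmod was at -1.21, Bgn at -0.50, Prelp at -0.24, Dcn at -0.12, Ogn at 0.080, Lum at 0.25 and Aspn at 0.36. Fmod, Bgn, Dcn and Prelp were below 0, and Aspn and Lum above 0, under each of 10 other ways to scale, filter or choose the stromal cells. Of these ways, no filter on low values and a limit of 0.5 leave each ratio unchanged by construction.

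**Figure D3:**
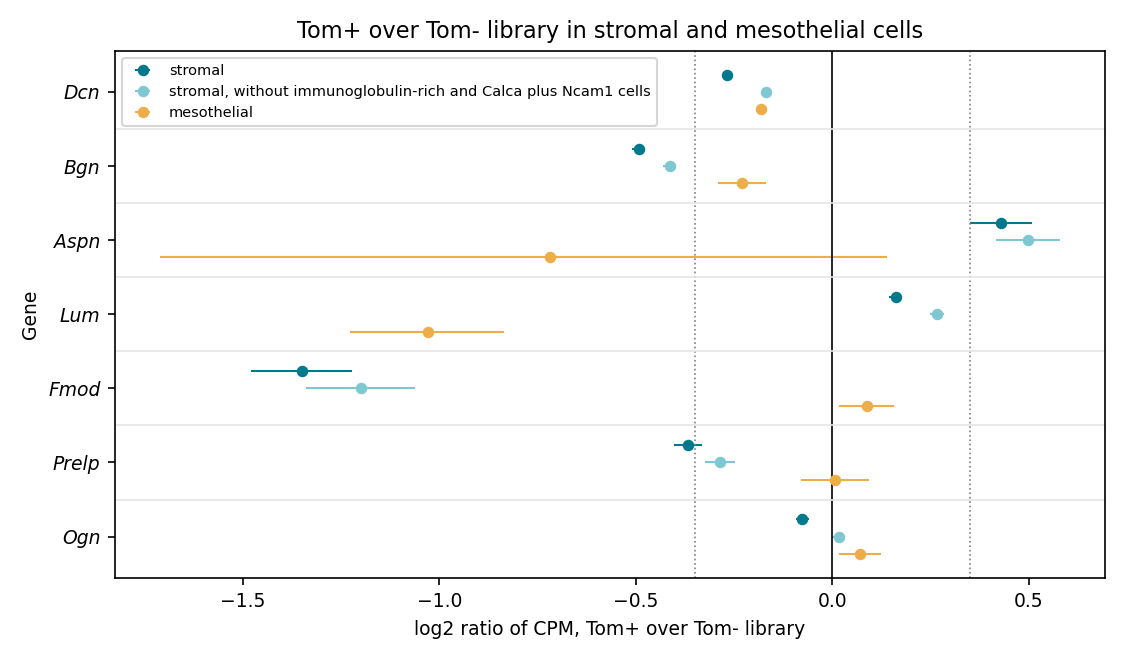
Log2 ratio of CPM in the Tom+ over the Tom- library for stromal cells (dark), stromal cells without immunoglobulin-rich and Calca plus Ncam1 cells (light) and mesothelial cells (yellow), with exact counting intervals at 95% and dotted lines at 0.35. Fmod is at -1.35 in stromal and 0.087 in mesothelial cells, and Lum lies on opposite sides of 0 in the 2 kinds of cell.

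The fibrillar collagens, the partners of SLRPs in the matrix, lay on the other side of the median in stromal cells. Of 7 tested, 4 were higher in Tom+ by the limit and none was lower, with a median of 0.45 beside -0.27 for the SLRPs. Over all genes tested, 14.8% were higher and 8.16% lower. Col3a1 reached 5483 against 3611 CPM (log2 ratio 0.60), Col5a3 at 348 and 211 CPM (0.72) and Col5a1 at 395 and 267 CPM (0.57). Per 1000 Dcn UMIs, Tom+ stromal cells held 61.3 Lum, 50.8 Bgn, 3.06 Aspn and 0.697 Fmod UMIs, and Tom- stromal cells held 45.5, 59.3, 1.89 and 1.47. Other relatives of the family were closer to the members, with Omd at -0.55 (-0.73 to -0.37), Epyc at -0.45 (-0.63 to -0.27), Podn at -0.25, Lrrc17 at -0.16 and Ecm2 at 0.068.

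Of 22 tested genes for ligands, receptors and proteases, 6 were higher and 3 lower in Tom+ stromal cells by the limit. Over all genes tested in this setting, 14.8% were higher and 8.16% lower, and the list counts that follow stand beside these shares. The higher genes included the matrix proteases Mmp14 at 419 and 256 CPM, and Mmp3 and Mmp2, which can cut SLRPs, with Eln (elastin) at 588 and 348 CPM. The lower genes were Adamts4, an aggrecanase, at 43.9 and 99.3 CPM, Wisp1 at 3.50 and 6.51 CPM, and Pcolce, the enhancer of the procollagen protease Bmp1, at 229 and 318 CPM. The TGF-β ligands Tgfb1, Tgfb2 and Tgfb3 did not pass the limit, with log2 ratios of 0.12, 0.17 and -0.18. Of 17 tested chondroitin and dermatan sulfate genes, 3 were higher (Ust, Fam20b and Chsy1) and none lower. Of the 4 keratan sulfate genes tested, 1 was higher, Chst1 at 26.7 and 18.2 CPM, and none lower. Among 13 other proteoglycans, 3 were higher (Sdc1, Spock2 and Tgfbr3) and 2 lower (Gpc4 and Sdc4). Without immunoglobulin-rich and Calca plus Ncam1 cells, none of the 4 keratan sulfate genes tested passed the limit in either direction. The interacting genes were then 9 higher and 2 lower of 21. The chondroitin and dermatan sulfate genes were 4 higher and none lower, and the other proteoglycans 3 and 3. Of all genes, 20.7% were higher and 6.33% lower in that setting.

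In mesothelial cells, Dcn, Bgn, Fmod and Prelp were closer to 0 in the same contrast than in all stromal cells, and Lum was further from it. Ogn was about as far from 0 as in stromal cells, on the other side. Without immunoglobulin-rich and Calca plus Ncam1 cells, stromal Dcn was at -0.17 and Ogn at 0.016, no further from 0 than in mesothelial cells. Fmod, with 375 against 353 CPM, had a log2 ratio of Tom+ over Tom- of 0.087 (0.018 to 0.16), on the other side of 0 from its ratio in stromal cells. Prelp was at 234 and 233 CPM, a log2 ratio of 0.0068 (-0.081 to 0.094), and Ogn at 616 and 586 CPM, a log2 ratio of 0.070 (0.017 to 0.12). Dcn was at 9987 and 11318 CPM (-0.18) and Bgn at 455 and 533 CPM (-0.23). Lum, at 44.0 and 89.7 CPM, was the 1 member past the limit of 0.35, with a log2 ratio of -1.03 (-1.23 to -0.84). By CPM, its mesothelial levels lay below those of immunoglobulin cells in the Tom+ library and overlapped them in the Tom- library. None of 6 tested was higher, and Aspn, from 12 and 120 UMIs, was too low to be tested. Its ratio was -0.72 (-1.71 to 0.14) and ran from -0.90 to 1.16 under other ways to choose or weight the cells, so its direction is open. Among 10014 genes, 7.34% were higher and 4.27% lower. Without the shared barcodes, Bgn at -0.39 also passed the limit and Ogn was at -0.037.

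At equal depth of 7204 UMIs a cell, the members fell into genes found in nearly every stromal cell and genes found in few. A Dcn UMI was found in 99.0% of Tom+ and 99.7% of Tom- stromal cells, with a median of 142 and 159 UMIs a cell. An Ogn UMI was found in 94.9% and 97.0%, a Bgn UMI in 92.3% and 95.5%, a Lum UMI in 92.0% and 91.3%, and a Prelp UMI in 72.2% and 80.5%. In immunoglobulin cells the shares were 67.8% and 75% for Dcn, 28.7% and 31.2% for Ogn, 35.6% and 37.5% for Bgn, 26.4% and 18.8% for Lum, and 19.5% and 18.8% for Prelp, all of them lower. Those cells held fewer UMIs other than immunoglobulin at this depth. Aspn was found in 15.6% (14.3 to 17.0) of Tom+ and 12.6% (11.7 to 13.7) of Tom- stromal cells. Before thinning, at a median of 14235 and 11270 UMIs, the shares of Aspn were 20.9% and 15.7% and those of Fmod 9.29% and 15.3%. The tenth of stromal cells with most Dcn held 18.3% and 18.2% of its UMIs, whereas the tenth with most Aspn held 85.2% and 90.3% of its UMIs.

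Cells with at least 3 Fmod UMIs at equal depth were 34 of 3023 Tom+ and 128 of 4233 Tom- stromal cells, and they held 44.1% and 57.3% of the stromal Fmod UMIs. These cells were picked by their Fmod, so their other values are a description. They held more Bgn than the rest, 1996 against 939 CPM in the Tom+ and 2718 against 1228 CPM in the Tom- library, and less Aspn, 12.2 against 54.8 CPM and 13.0 against 39.3 CPM. The contractile gene Acta2 was at 159 against 11.9 CPM and at 269 against 21.0 CPM. The progenitor gene Dpp4 was at 8.17 against 71.7 CPM and 5.42 against 51.0 CPM. In these cells Aspn rested on 3 and 12 UMIs and Dpp4 on 2 and 5 UMIs, so both levels are imprecise. The Tom+ log2 ratios to the rest were -2.16 (-4.44 to -0.61) for Aspn and -3.13 (-6.18 to -1.28) for Dpp4. Ncam1 was at 40.8 against 1.47 CPM and 112 against 3.30 CPM, and 2 and 16 of these cells were among the Calca plus Ncam1 cells. In 3 of the 34 and 39 of the 128 a UMI of the mesothelial markers was found. Of all stromal cells before thinning, 9.56% in the Tom+ and 26.7% in the Tom- library held such a UMI.

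Cells with at least 3 Aspn UMIs were 156 of 3023 Tom+ and 137 of 4233 Tom- stromal cells, with 62.4% and 55.1% of the Aspn UMIs. They held less Dcn than the rest, 16624 against 21348 CPM and 19193 against 23971 CPM, and more Bgn, 1357 against 928 CPM and 1574 against 1256 CPM. The adipocyte gene Fabp4 was at 1811 against 1052 CPM in the Tom+ library but at 1033 against 1008 CPM in the Tom- library. The progenitor gene Dpp4 was at 64.1 against 71.2 CPM in the Tom+ and 85.1 against 48.5 CPM in the Tom- library. The cells rich in Aspn thus differed between the libraries in both marker genes.

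APCs span states from interstitial progenitors, which carry Dpp4 and Pi16, to preadipocytes, which carry Pparg and Fabp4. Stromal cells were grouped by the summed UMIs of 6 markers of each state at equal depth, with high and low groups at the quartiles over both libraries (at least 6 against at most 1 UMI for interstitial progenitor and at least 23 against at most 6 UMIs for preadipocyte markers). The groups are ranges of a count and not cell types, and 1533 Tom+ and 2280 Tom- cells lay within 1 UMI of the lower limit for interstitial progenitor markers.

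Along the interstitial progenitor markers, Ogn was higher in high cells, at 1406 against 858 CPM in the Tom+ and 1233 against 1040.1 CPM in the Tom- library, log2 ratios of 0.71 (0.67 to 0.76) and 0.25 (0.21 to 0.28). Bgn was lower in high cells, at 599.95 against 1116 CPM and 996 against 1389 CPM, log2 ratios of -0.89 and -0.48. Lum followed Bgn, at 751 against 1389 CPM and 809 against 1131 CPM, also -0.89 and -0.48. Fmod was at 4.06 against 24.4 CPM and 17.4 against 39.2 CPM, log2 ratios of -2.59 (-3.25 to -1.99) and -1.17 (-1.45 to -0.90). Prelp was at -0.34 and -0.53 and Dcn at -0.013 and -0.23. Aspn lay on opposite sides in the libraries, at 46.5 against 56.9 CPM in the Tom+ (-0.29) and 62.0 against 27.9 CPM in the Tom- library (1.15). With a split at the median the Tom+ ratio was 0.013, barely on the same side as the Tom- ratio. Without immunoglobulin-rich and Calca plus Ncam1 cells it was -0.48, further from the Tom- ratio. By the limit of 0.35, 1 member (Ogn) was higher and 3 lower in the Tom+ library, where 20.3% of genes were higher and 12% lower. In the Tom- library 1 member (Aspn) was higher and 4 lower, where 15.9% and 13.8% of genes were.

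Along the preadipocyte markers, Prelp was the member higher by the limit in high cells of both libraries, and Lum and Dcn were above 0 in both and past the limit in 1. Prelp was at 278 against 169 CPM in the Tom+ and 343 against 210.4 CPM in the Tom- library, log2 ratios of 0.72 (0.60 to 0.83) and 0.70 (0.62 to 0.79). Lum was at 1489 against 817 CPM (0.87) and 1091 against 877 CPM (0.32), and Dcn at log2 ratios of 0.30 and 0.44. Aspn was at 113 against 28.4 CPM in the Tom+ library (1.98, 1.74 to 2.24) but at 46.1 against 39.4 CPM in the Tom- library, 0.23 (0.011 to 0.45). Bgn lay on opposite sides, at 1084 against 816 CPM (0.41) and 1061 against 1356 CPM (-0.35). Fmod was at 0.059 (-0.42 to 0.54) and -0.74, and Ogn at 0.0015 and 0.24. Median-of-ratios scaling takes 0.15 from each Tom+ ratio here, which puts Fmod and Ogn below 0. By the limit, 4 members were higher and 0 lower in the Tom+ library, where 25.8% of genes were higher and 10.4% lower, and 2 were higher and 2 lower in the Tom- library, where 21.1% and 13.4% were.

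**Figure D4:**
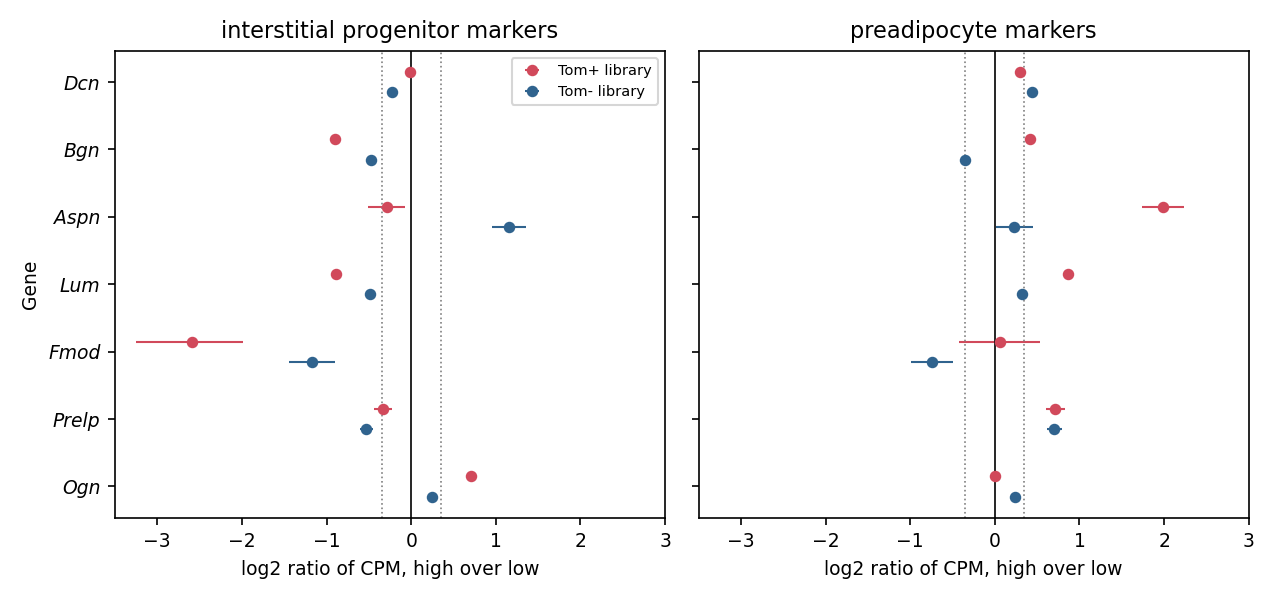
Log2 ratio of CPM in stromal cells with high over low sums of interstitial progenitor markers (left) and preadipocyte markers (right), in the Tom+ (red) and Tom- (blue) libraries, with exact counting intervals at 95% and dotted lines at 0.35. Aspn lies at -0.29 and 1.15 on the left and at 1.98 and 0.23 on the right, and Fmod is lower in high cells of both libraries on the left.

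The difference between the libraries was measured again within these groups, a choice made with the data in view, without immunoglobulin-rich and Calca plus Ncam1 cells. For Aspn the log2 ratio of Tom+ over Tom- was 1.31 (1.12 to 1.503) among cells high in preadipocyte markers, at 114 and 46.1 CPM, but -0.36 (-0.64 to -0.088) among cells low in them, at 31.9 and 41.0 CPM. It was 1.19 (0.98 to 1.39) among cells low in interstitial progenitor markers and -0.44 (-0.66 to -0.23) among cells high in them. Over all stromal cells without immunoglobulin-rich and Calca plus Ncam1 cells, the cells between the quartiles included, the ratio was 0.50. For Bgn the ratio was 0.029 (-0.020 to 0.078) in preadipocyte-high cells and -0.62 (-0.67 to -0.57) in preadipocyte-low cells. It was -0.73 and -0.22 in interstitial progenitor-high and -low cells. Fmod was lower in Tom+ in each group, from -2.15 (-2.86 to -1.51) in interstitial progenitor-high to -0.42 (-0.67 to -0.17) in interstitial progenitor-low cells. Dcn and Prelp were below 0 in all 4 groups, with Dcn between -0.30 and -0.078 and Prelp between -0.31 and -0.20. The median of all genes in these groups lay between 0.11 and 0.14.

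Within 1 library, cells with a reporter UMI were also set against cells with none, again a choice made with the data in view, which keeps the preparation the same. Cells thinned to 7204 UMIs were used, without immunoglobulin-rich and Calca plus Ncam1 cells. Of the 2762 Tom+ stromal cells of this kind, 445 held a tdTomato UMI and 2317 did not. Bgn was at 1031 CPM with and 935 CPM without a reporter UMI, a ratio of 0.14 (0.086 to 0.19), on the other side of 0 from the ratio between the libraries. Lum was at -0.10 (-0.15 to -0.051), also on the other side of 0 from its ratio between the libraries. Fmod was at 17.8 and 13.5 CPM, 0.39 (-0.052 to 0.82), Aspn at 52.7 and 54.7 CPM, -0.053 (-0.30 to 0.19), and Dcn at -0.0053 (-0.017 to 0.0065). Of the 4100 Tom- stromal cells of this kind, 361 held a tdTomato UMI and 3739 did not, with Bgn at -0.081 (-0.13 to -0.028), Lum at 0.071 (0.014 to 0.13), Fmod at 0.31 (-0.0089 to 0.61) and Aspn at 0.36 (0.080 to 0.63). The Tom- cells were sorted as tdTomato-negative, and free reporter RNA was not told apart from expression in them. Their split is thus no contrast of marked with unmarked cells. A tdTomato UMI depends on capture as well as on expression, so the cells without one in the Tom+ library are not tdTomato-negative cells.

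Across stromal cells at equal depth, without immunoglobulin-rich and Calca plus Ncam1 cells, members formed pairs that were alike in both libraries. The values are Pearson correlations across cells of 1 library, which share library, depth and preparation, and are descriptions. Dcn and Ogn were at r = 0.30 over 2762 Tom+ and 0.28 over 4100 Tom- cells, and Bgn and Lum at 0.31 and 0.25. Dcn and Lum, neighbours on chromosome 10, were at 0.27 and 0.22. Bgn and Ogn were at -0.20 and -0.19, and Bgn and Fmod at 0.18 and 0.23. Aspn and Ogn, both on chromosome 13, were at -0.041 and 0.030, and Fmod and Prelp on chromosome 1 at 0.10 and 0.081. In mesothelial cells, Fmod and Dcn were at -0.17 over 209 and -0.16 over 1782 cells, and Fmod and Ogn at 0.14 and 0.19.

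**Figure D5:**
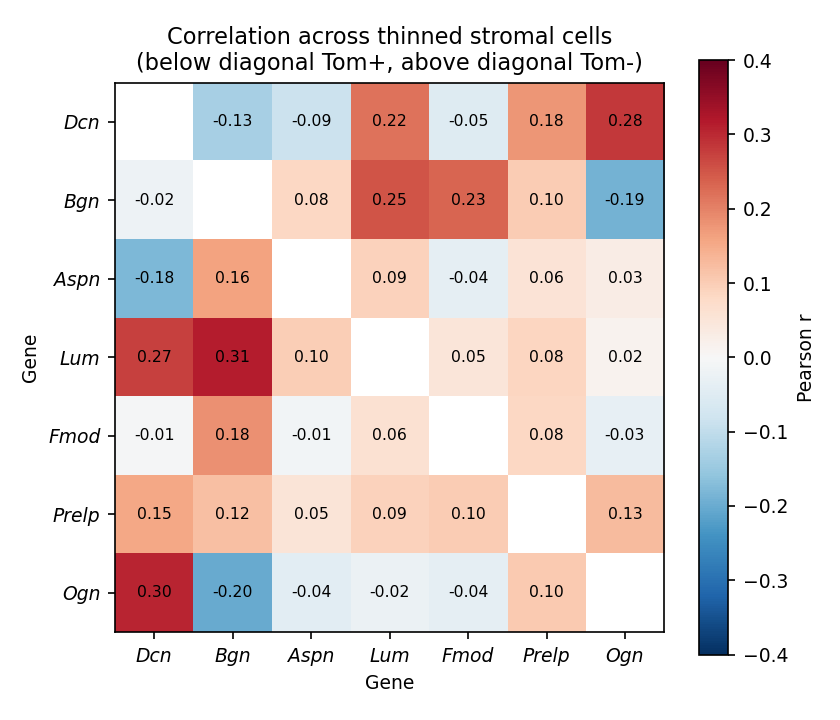
Pearson correlation between the 7 genes across stromal cells thinned to 7204 UMIs, without immunoglobulin-rich and Calca plus Ncam1 cells, with the Tom+ library below and the Tom- library above the diagonal. Dcn with Ogn and Bgn with Lum are the most positive pairs in the Tom+ library, and Bgn with Ogn is negative in both libraries.

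Among 2844 genes with at least 50 CPM, the genes most like each member across all thinned stromal cells, by the lower of the correlations in the libraries, differed between members. Dcn was most like Gsn (gelsolin) at 0.74 over 3023 Tom+ and 0.53 over 4233 Tom- cells, Inmt at 0.46 and 0.44 and Egr1 at 0.68 and 0.44. Without immunoglobulin-rich and Calca plus Ncam1 cells, Gsn was at 0.45 and 0.44 and Egr1 at 0.31 and 0.30, so part of these values came with those cells. Bgn was most like Mgp (matrix Gla protein) at 0.54 and 0.61, Igfbp7 at 0.48 and 0.48 and Fbln2 (fibulin 2) at 0.46 and 0.42. Lum was most like Serpinf1 at 0.42 and 0.29, with Igfbp7 and Mgp next, the same genes as for Bgn. Ogn was most like Clec3b at 0.52 and 0.43, Plpp3 at 0.50 and 0.41 and Dpep1 at 0.46 and 0.41. Without immunoglobulin-rich and Calca plus Ncam1 cells these were 0.38 and 0.37, 0.37 and 0.34, and 0.33 and 0.35. Lum with Serpinf1 was then at 0.32 and 0.27 and Bgn with Igfbp7 at 0.40 and 0.45, while Bgn with Mgp was at 0.53 and 0.61. Prelp was most like Hsd11b1 at 0.25 and 0.27, Smoc2 at 0.22 and 0.23 and Dcn at 0.26 and 0.22, of which Dcn was at 0.15 and 0.18 without immunoglobulin-rich and Calca plus Ncam1 cells. For the sparse genes the values were low, with Cpxm2 at 0.25 and 0.31, Gas6 at 0.23 and 0.30 and Mfap4 at 0.20 and 0.21 for Fmod, and Marcks at 0.27 and 0.23, Col6a3 at 0.34 and 0.23 and Hmcn2 at 0.25 and 0.23 for Aspn. In counts this sparse such values are weak and no finding.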

How the data were processed

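Single-cell RNA-seq libraries (10x Genomics Chromium Single Cell 3′ v3.1) of sorted gWAT cells were analysed from the UMI counts per gene and barcode that the authors deposited, whole numbers without normalization, made with Cell Ranger 3.0.2 on mm10 per the submitters' processing notes. Cells were filtered and classed as described above, UMIs of a class were summed per library and divided by the summed total (CPM), and only genes averaging 5 CPM or more were compared. Levels carry exact Poisson, shares exact Clopper-Pearson and ratios exact conditional 95% intervals. For shares, correlations and marker groups each cell was thinned to 7204 UMIs, the 10th percentile of stromal cells, with a fixed seed of 0, which left out 240 Tom+ and 567 Tom- stromal and 3 and 84 mesothelial cells. Doublets were not removed, and 111 Tom+ and 755 Tom- mesothelial cells held a Pdgfra UMI. Ratio intervals were checked on Poisson counts simulated from a pooled stromal profile, where 95.0% held the true ratio. Such counts lack the spread between cells, so this checks the calculation and not the intervals for these data. Python 3.11.15, numpy 2.4.6, pandas 2.3.3 and scipy 1.17.1 were used.

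The 7 members, the marker and gene lists and the rules were chosen with earlier results of these data known. The limit of 0.35 on the log2 scale is the study's figure limit for Tom+ against Tom-. A lower limit in its methods was not used here. The text names the 7 members, the genes of the lists of relatives and interacting genes with enough RNA, the 3 highest and 3 lowest of each other list, and the 3 genes most like each member. Dse, Col5a1, Optc and the genes of cells rich in Fmod or Aspn are outside that rule or were named after their values were seen. Alternatives were median-of-ratios scaling, equal weight for each cell, other filters on mitochondrial share, genes and markers, leaving out immunoglobulin-rich or shared-barcode cells, and a limit of 0.5. Promoters are RefSeq's.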

Additional observations from a re-analysis of the deposited data

Results flagged for a closer look

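Differences between groups of cells or libraries in the direction of a ratio were untested, since each rests on 1 library per sorted group. Lum was at a log2 ratio of Tom+ over Tom- of 0.16 in stromal and -1.03 in mesothelial cells, 1.19 apart. By CPM, mesothelial Lum was below the level of immunoglobulin cells in the Tom+ library and overlapped it in the Tom- library. Prelp was at a log2 ratio of mesothelial over stromal of 0.17 in the Tom+ and -0.21 in the Tom- library, 0.37 apart. Without barcodes listed in both libraries both were below 0.

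Aspn was at a Tom+ over Tom- ratio of 1.31 in cells high and -0.36 in cells low in preadipocyte markers, 1.67 apart, and at -0.44 in cells high and 1.19 in cells low in interstitial progenitor markers, a difference of -1.63. Over the interstitial progenitor markers its high-over-low ratio was -0.29 in the Tom+ and 1.15 in the Tom- library, a difference of -1.45. With a split at the median both were above 0, the Tom+ ratio at 0.013. Without immunoglobulin-rich and Calca plus Ncam1 cells the Tom+ ratio was -0.48. Ogn was at -0.14 in cells high and 0.17 in cells low in preadipocyte markers, a difference of -0.31, and at 0.20 and -0.19 in cells high and low in interstitial progenitor markers, 0.38 apart. Bgn was at a high-over-low ratio for preadipocyte markers of 0.41 in the Tom+ and -0.35 in the Tom- library, 0.77 apart.

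In the barcodes that did not pass the filters, which entered no comparison except the alternative with no quality control, Bgn was at 1030.2 CPM in the Tom+ and 1744 CPM in the Tom- library, above the stromal 939.7 and 1322 CPM. Aspn was at 84.7 CPM in those of the Tom- library, above the stromal 42.1 CPM.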

How the results depend on the processing

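No paired analysis was possible because each sorted group is 1 library. For Tom+ over Tom- stromal cells the members higher numbered 0 with no quality control, and at a limit of 0.5 on the log2 scale 0 were higher and 1 lower. The median of the members, -0.27 in the report, was -0.34 with median-of-ratios scaling, -0.21 with cells weighted equally, -0.29 with a mitochondrial share under 5%, -0.25 with no quality control, -0.28 with under 2 mesothelial UMIs, -0.17 without immunoglobulin-rich and Calca plus Ncam1 cells, -0.12 without barcodes listed in both libraries and -0.23 with only Pdgfra cells. Ogn was at 0.0024, 0.016 and 0.080 with cells weighted equally, without immunoglobulin-rich and Calca plus Ncam1 cells, and without shared barcodes. Of all genes, 14.8% were higher in the main setting, and the share with no quality control is not given here.

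For mesothelial over stromal cells of the Tom+ library the median was -0.97 with equal cells, -0.87 under 5% mitochondrial, -1.03 without immunoglobulin-rich and Calca plus Ncam1 cells, -1.002 with median-of-ratios scaling and -1.03 without shared barcodes, where 5 members were lower and Prelp was at -0.12. In the Tom- library it was -1.04, -0.99, -1.02, -1.12 and -0.9998 in that order, and -0.99 with at least 20 marker UMIs, and 5 members were lower with median-of-ratios scaling. For Tom+ over Tom- mesothelial cells it was -0.017 with no Pdgfra UMI, -0.14 with equal cells and -0.13 without shared barcodes, where 2 members were lower. Ogn was then at -0.017 and -0.037 with no Pdgfra UMI and without shared barcodes. For mesothelial over stromal cells, 10.1% of all genes were lower in the Tom+ and 9.22% in the Tom- library in the main setting. The shares of all genes in the settings with 5 lower members are not given here.

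Split at the median in place of quartiles, the members' median over the interstitial progenitor markers was -0.21 in the Tom+ and -0.30 in the Tom- library, with 1 member lower in the latter, and Dcn and Aspn were at 0.038 and 0.013 in the former. Over the preadipocyte markers it was 0.19 and 0.18, with 1 member higher and 1 lower in the Tom- library. Without immunoglobulin-rich and Calca plus Ncam1 cells the interstitial progenitor median in the Tom+ library was -0.48, with 5 members lower, and the preadipocyte medians were 0.33 and 0.17, with 1 member lower in the Tom- library. The causes of these shifts were not tested. In the main setting, 12% of all genes were lower along the interstitial progenitor markers in the Tom+ library. Along the preadipocyte markers 13.4% were lower in the Tom- library. The shares of all genes without immunoglobulin-rich and Calca plus Ncam1 cells are not given here. Alternatives without shared barcodes for mesothelial cells, and without immunoglobulin-rich cells for marker groups, were chosen after seeing the data. Of the counts and medians of members, 62 values stayed within their limits and 40 moved. Of the single values 120 stayed, 138 moved and 8 changed sign. A change of sign was counted only where the main interval held values of 1 sign, so other changes of sign are among those that moved or stayed. No filter on low values and a limit of 0.5 cannot move a member's ratio or the members' median. These values count among those that stayed. Over all genes, 14.8% were higher and 8.16% lower in Tom+ stromal cells, 9.78% and 11.1% with median-of-ratios scaling, 27.5% and 21.3% with no filter on low values and 6.39% and 4.26% at a limit of 0.5. In mesothelial cells 7.34% and 4.27% became 11.3% and 7.96% with no Pdgfra UMI and 10.2% and 9.65% without shared barcodes. With median splits the shares were 13.6% and 7.53%, 9.97% and 8.26% (interstitial progenitor markers, Tom+ and Tom-), 13.1% and 6.45%, and 12.6% and 8.91% (preadipocyte markers). Depth limits Aspn in mesothelial cells, with 12 and 120 UMIs.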
